A study of Mus musculus with 24 samples.

Results

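The comparison of the double knockout (DKO) with the Ogg1 knockout in NeuN- nuclei of the hippocampus asks what loss of Mutyh adds where Ogg1 is already absent. Its members were the 3 libraries labelled DKO and the 3 labelled Ogg1-/- of the NeuN- fraction, 6 of the 24 libraries of the series. All came from male C57BL/6N mice aged 6 months in standard home cages. DKO mice lacked both Ogg1 and Mutyh and the Ogg1-/- mice lacked Ogg1, so loss of Ogg1 was shared by every library compared here. Both losses are constitutive and concern all cells. DKO mice came from a cross of Ogg1-/- with Mutyh-/- mice. Littermates are not mentioned, so loss of Mutyh and other differences between the mouse lines cannot be told apart. The NeuN- libraries of WT and Mutyh-/- mice (3 each) were used to place each level, and the NeuN+ libraries of the same genotypes to compare the fractions. For RNA the methods give nuclei of 3 animals per genotype as pooled, and for sorting they give another number per pool. Whether the 3 libraries of a genotype are separate pools is thus unclear, and the tests measure the spread between these libraries. Sequencing lanes differed between the fractions, so lane and fraction cannot be told apart.

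Ogg1 and Mutyh act on the same oxidized base, 8-oxoguanine. Ogg1, a bifunctional DNA glycosylase, removes 8-oxoguanine that is paired with cytosine. Mutyh removes adenine that was placed opposite 8-oxoguanine during replication, after which base excision repair can restore the pair. Nuclei without NeuN, a neuronal nuclear protein encoded by Rbfox3, come mainly from oligodendrocytes, astrocytes, microglia, precursors and vessel cells.

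The libraries of the comparison held between 56982273 and 87940724 counted read pairs. Oligodendrocyte markers summed to 4576 to 5764 CPM (counts scaled to library size) in the 6 libraries, and neuron markers to 302 to 365 CPM in Ogg1-/- and 292 to 357 CPM in DKO. The fraction thus held RNA of glia with some neuronal RNA, at similar levels in both genotypes. Choroid plexus markers stood apart by library and not by genotype, with sums of 9.56, 91.1 and 96.0 CPM in Ogg1-/- and 7.34, 62.5 and 215 CPM in DKO, and their part in the results was not tested. The sums were lowest in replicate 1 and highest in replicate 3 of both genotypes. In bulk nuclei, fewer cells of a type and less RNA per cell cannot be told apart.

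Few genes differed. Of 31863 genes tested with edgeR's quasi-likelihood test, 42 were differentially expressed genes (DEGs), with an adjusted p under 0.05 and a log2 fold change beyond 0.5 in either direction, which is 0.132% of the genes tested. DKO was higher in 9 (0.0282%) and lower in 33 (0.104%). Without the fold limit, 50 genes (0.157%) passed. The 3 DKO and 3 Ogg1-/- libraries did not overlap for any of the 42, against 8.51% of all genes tested. The 42 were chosen by a test between these same libraries, so this adds no further evidence. The median log2 fold change over all genes was 0.00405. The scaling between libraries (TMM) assumes that most genes do not change, which draws this median toward 0. The number of DEGs was 52 without DKO replicate 3, with 17 higher, and 30 without DKO replicate 2, with 5 higher.

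The DEGs were placed unevenly in the genome. Of the 39 with a chromosome, 29 lay on chromosome 4 (74.4%), which carried 5.64% of the genes tested. They formed a dense group of gene copies around Ccl21b and a looser group around Mutyh itself. The other DEGs lay on chromosomes 7, 13, 14 and 16.

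**Figure D1:**
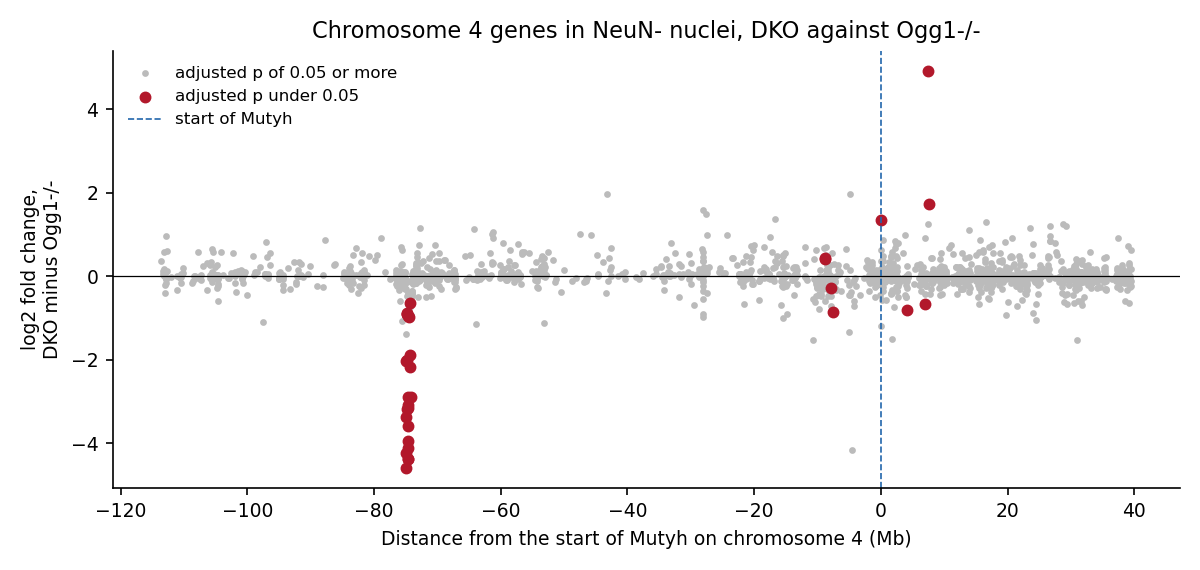
Log2 fold change of DKO minus Ogg1-/- in NeuN- nuclei for each tested gene of chromosome 4, by distance in Mb of its start from the start of Mutyh (dashed line). Red points have an adjusted p under 0.05. The column of red points far to the left holds the lower gene copies around Ccl21b, and the others lie around Mutyh, in both directions.

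The gene copies around Ccl21b accounted for 26 of the 33 lower DEGs. Ccl21 is a chemokine that guides lymphocytes and dendritic cells through the receptor CCR7, and the mouse carries several nearly identical genes for it, interleaved with copies of other genes. On GRCm38, 23 of 32 tested genes with starts between chr4:41809083 and chr4:42612860 were DEGs, and all 23 were lower in DKO. The interval was drawn from its outermost genes that passed, so this share is not that of a region set beforehand. A further 3 lower DEGs (Gm10599, Gm50470 and BX666061.1) had no position in the annotations used and were grouped with these copies after their values were seen, because their levels ran alike over the genotypes. To show how alike such copies are, 150 bases of the region before the start of 3 DEGs and of Ccl21a follow, with their source RefSeq (GRCm38.p6). Ccl21d is from chr4:41903453-41903602 (plus strand), Gm13304 from chr4:42114627-42114776 (plus strand), Gm10591 from chr4:42611963-42612112 (plus strand) and Ccl21a from chr4:42774001-42774150 (minus strand). Capitals mark bases that differ from Ccl21d.
Ccl21d: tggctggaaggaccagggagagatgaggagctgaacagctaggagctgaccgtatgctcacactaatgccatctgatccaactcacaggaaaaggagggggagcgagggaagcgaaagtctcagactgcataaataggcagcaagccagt
Gm13304: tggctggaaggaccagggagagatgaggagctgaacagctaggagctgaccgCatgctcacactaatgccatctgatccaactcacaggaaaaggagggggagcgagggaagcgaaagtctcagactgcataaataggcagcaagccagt
Gm10591: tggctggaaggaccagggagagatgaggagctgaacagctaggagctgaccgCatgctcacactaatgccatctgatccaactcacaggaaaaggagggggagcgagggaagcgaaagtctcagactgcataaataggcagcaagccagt
Ccl21a: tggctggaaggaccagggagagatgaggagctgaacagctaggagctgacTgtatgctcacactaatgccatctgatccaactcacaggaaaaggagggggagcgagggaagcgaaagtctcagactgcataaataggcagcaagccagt
Gm13304 and Gm10591 were identical over these bases and each differed from Ccl21d by 1 base, as did Ccl21a. Of the transcripts annotated for 22 of the copies, between 38.2% and 100% of all windows of 100 bases (median 88.1%) also occurred in transcripts of other genes, and for 9 copies every window did. How reads with several possible origins were counted is not given in the sources used here, so the values of single copies are uncertain.

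Gm17081, an unprocessed pseudogene of this group (chr4:42239725-42240202), stood at 120, 127 and 110 CPM in the Ogg1-/- libraries and at 3.46, 3.62 and 10.3 CPM in DKO. The groups were far apart, and DKO replicate 3 was above the other DKO libraries. Its log2 fold change was -4.38 (SE 0.33; edgeR adjusted p = 5.06e-05). Gm17167, another copy, had 539, 585 and 456 CPM in Ogg1-/- and 34.2, 32.7 and 65.9 CPM in DKO, a log2 fold change of -3.57 (adjusted p = 1.02e-05). Ccl21d, which encodes one of the chemokine copies, had 7.39, 9.74 and 9.25 CPM in Ogg1-/- and 0.828, 0.531 and 1.17 CPM in DKO, again with no overlap. Its log2 fold change was -3.38 (SE 0.26; adjusted p = 6.37e-05), and that of Ccl21b was -3.09 (adjusted p = 8.46e-05). Gm13307 had the smallest adjusted p of the comparison (2.45e-06), at 130, 150 and 130 CPM in Ogg1-/- against 35.0, 31.1 and 35.0 CPM in DKO.

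The size of the difference varied among copies. It ran from a fall by 0.64 on the log2 scale in Gm10593 to a fall by 4.59 in Gm10601, with a median of -3.12 over the 26 copies, and it was above 3 in 14 of them. Fam205a3 and Fam205a4 fell by 0.98 and 0.87. The 9 tested genes of the interval that were not called all had a negative log2 fold change, between -0.12 (Gm21980) and -1.38 (Ccl19-ps1), with adjusted p from 0.434 to 0.997. Ccl21a lies just beyond the interval. It had 2.63, 3.56 and 3.10 CPM in Ogg1-/- and 3.09, 1.86 and 1.91 CPM in DKO, which overlap (log2 fold change -0.42, adjusted p = 0.997), although 50.3% of its windows of 100 bases also occur in other genes.

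Summed over the 26 copies, levels were 1635, 1789 and 1506 CPM in Ogg1-/- and 238, 211 and 302 CPM in DKO. WT libraries held 193, 201 and 228 CPM, and Mutyh-/- libraries 529, 524 and 555 CPM. Ogg1-/- was thus highest, Mutyh-/- intermediate, and WT and DKO low. For each of the 26 copies every Ogg1-/- library was above the other 9 NeuN- libraries, and the mean of Mutyh-/- was between that of Ogg1-/- and those of WT and DKO. The ranges of DKO and WT overlapped in 24 of the 26. The 3 copies without a position were grouped by these same levels, so their sharing the pattern was set by that choice. Later counts of gene copies include them. DKO replicate 3 was the highest DKO library for 20 copies, at a median of 1.58 times the mean of the other two. Without it the log2 fold change of Gm17081 was -5.08.

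Around Mutyh, DKO differed in both directions. Mutyh (chr4:116807723-116819440) stood at 3.56, 3.51 and 3.19 CPM in Ogg1-/- and at 7.21, 8.75 and 10.1 CPM in DKO. All DKO libraries were above all Ogg1-/- libraries, a log2 fold change of 1.34 (SE 0.11; adjusted p = 1.44e-04). WT libraries held 2.60 to 3.07 CPM and Mutyh-/- libraries 10.1 to 10.5 CPM, so RNA counted for Mutyh was higher in every library labelled as lacking it. The counts sum over the whole gene and do not show which exons were read, so they do not check the deletion. Ogg1 differed little, with 6.81, 7.12 and 6.43 CPM in Ogg1-/- and 7.46, 7.75 and 6.14 CPM in DKO (log2 fold change 0.07, adjusted p = 0.997). WT libraries held 6.21 to 7 CPM of it, so these counts do not check the loss of Ogg1 either. Ogg1 overlaps Camk1 on the opposite strand.

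Within 10 Mb of Mutyh, 6 of 360 tested genes were DEGs (1.67%, Mutyh itself among them), against 0.132% of all genes tested. Of these, 3 were higher and 3 lower. Within 10 Mb of Ogg1, 0 of 235 genes were DEGs (smallest edgeR adjusted p 0.584). This is near the share over all genes, and both groups lack Ogg1, so it makes no contrast with Mutyh. The noncoding 1700057H15Rik (chr4:124414416-124485959) had 2.13, 1.78 and 1.99 CPM in Ogg1-/- against 7.93, 6.31 and 5.17 CPM in DKO, a log2 fold change of 1.72 (adjusted p = 6.38e-04). Next to it, 1700021L23Rik was nearly absent from Ogg1-/-, with 1 count over its 3 libraries, against 44 counts over the 3 DKO libraries. The ratio of these counts, scaled to library size, was 39.8 (95% interval 6.77 to 1610, which covers counting error only).

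Lower in DKO were Zfp69, a zinc finger protein gene, Calr4, a calreticulin gene, and Rhbdl2, which encodes a rhomboid protease. Zfp69 had 14, 17.5 and 16.3 CPM in Ogg1-/- and 8.26, 8.25 and 10.8 CPM in DKO (log2 fold change -0.81, SE 0.11, adjusted p = 6.67e-03). Calr4 had 2.63, 2.62 and 2.78 CPM against 1.72, 1.51 and 1.20 CPM, and Rhbdl2 6.45, 6.95 and 6.83 CPM against 4.04, 3.90 and 4.91 CPM. Neither pair of groups overlapped (log2 fold changes -0.85 and -0.65, adjusted p = 0.0287 and 0.0468). Under the fold limit, Podn, which encodes a small proteoglycan, and Scp2, which encodes a sterol carrier protein, were higher by 0.41 and 0.44, and Nrd1, a metalloprotease gene, fell by 0.28 (adjusted p = 8.73e-03, 3.90e-03 and 0.0184). Podn and Scp2 overlap on the same strand, so their reads may be shared. The calls of Calr4, Rhbdl2 and Nrd1 were lost without any of the 3 Ogg1-/- libraries or without DKO replicate 2, that of Calr4 also without DKO replicate 3 and those of Rhbdl2 and Nrd1 also without DKO replicate 1, with adjusted p up to 0.154, 0.287 and 0.116.

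On chromosome 14, 7 of 63 tested genes between chr14:72537946 and chr14:78002657 passed, 4 of them DEGs. This interval too was drawn around genes that passed, joined where the next started within 5 Mb, so the share was raised by that choice. Epsti1, a gene that interferon induces, had 8.72, 7.30 and 8.42 CPM in Ogg1-/- and 16.6, 15.9 and 13.5 CPM in DKO. Every DKO library was above every Ogg1-/- library (log2 fold change 0.92, SE 0.09, adjusted p = 2.75e-04). Esd, which encodes the esterase that hydrolyses S-formylglutathione, had 5.22, 5.36 and 5.68 CPM against 10.3, 10.1 and 8.15 CPM (log2 fold change 0.81, adjusted p = 1.07e-03). The noncoding Gm49171 rose by 0.98, and Gm49200 fell by 1.66, from 3.02, 3.74 and 3.84 CPM to 0.873, 0.830 and 1.67 CPM. Fndc3a, a fibronectin domain protein gene, was higher by 0.33, and Enox1, which encodes a cell surface NADH oxidase, and its antisense Gm6994 fell by 0.46 and 0.48. Gm6994 lies within Enox1 on the other strand, and reads of the pair may be mixed. In all 7 genes WT and Mutyh-/- means were nearer to DKO than to Ogg1-/-. WT libraries held 14 to 14.9 CPM of Epsti1 and 10.1 to 10.9 CPM of Esd, so Ogg1-/- was the genotype that stood apart.

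The remaining DEGs were scattered. Wdr88, a WD repeat protein gene (chr7:35236233-35275556), had 9.23, 7.73 and 12.5 CPM in Ogg1-/- and 1.20, 1.66 and 2.54 CPM in DKO (log2 fold change -2.46, SE 0.37, adjusted p = 0.0184). WT and Mutyh-/- libraries held 0.648 to 2.21 CPM, as low as DKO. Slc5a11, which encodes a sodium-coupled myo-inositol transporter, had 9.74, 9.61 and 8.97 CPM against 13.8, 16.4 and 17.5 CPM (log2 fold change 0.75, adjusted p = 0.0166), and WT was at 14.4 to 18.6 CPM. The call of Wdr88 was lost without any 1 of 4 libraries (Ogg1-/- replicates 1 and 3, DKO replicates 1 and 2; adjusted p up to 0.151), and that of Slc5a11 without any library but DKO replicate 1 (up to 0.104).

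Agtr1a, the gene of angiotensin II receptor type 1a (chr13:30336441-30382867), fell by 0.95, from 4.89, 7.49 and 6.42 CPM to 3.08, 2.86 and 3.82 CPM (adjusted p = 0.0427). Gm48161, annotated within Agtr1a on the same strand, fell by 1.01 (adjusted p = 0.0461), and the same reads may serve both. Ndufs5-ps, a pseudogene of a complex I subunit, rose by 1.05, and Gm12766 by 0.98 (adjusted p = 0.0108 and 0.0319). Also on chromosome 7, Gm26935 and Tmem147os were higher by 0.45 and 0.39, under the fold limit, and they overlap on the same strand. Each of these 6 calls was lost without at least 4 of the 6 libraries in turn, with adjusted p up to 0.287 for Agtr1a and Gm48161, 0.085 for Ndufs5-ps, 0.231 for Gm12766, 0.178 for Gm26935 and 0.151 for Tmem147os.

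**Figure D2:**
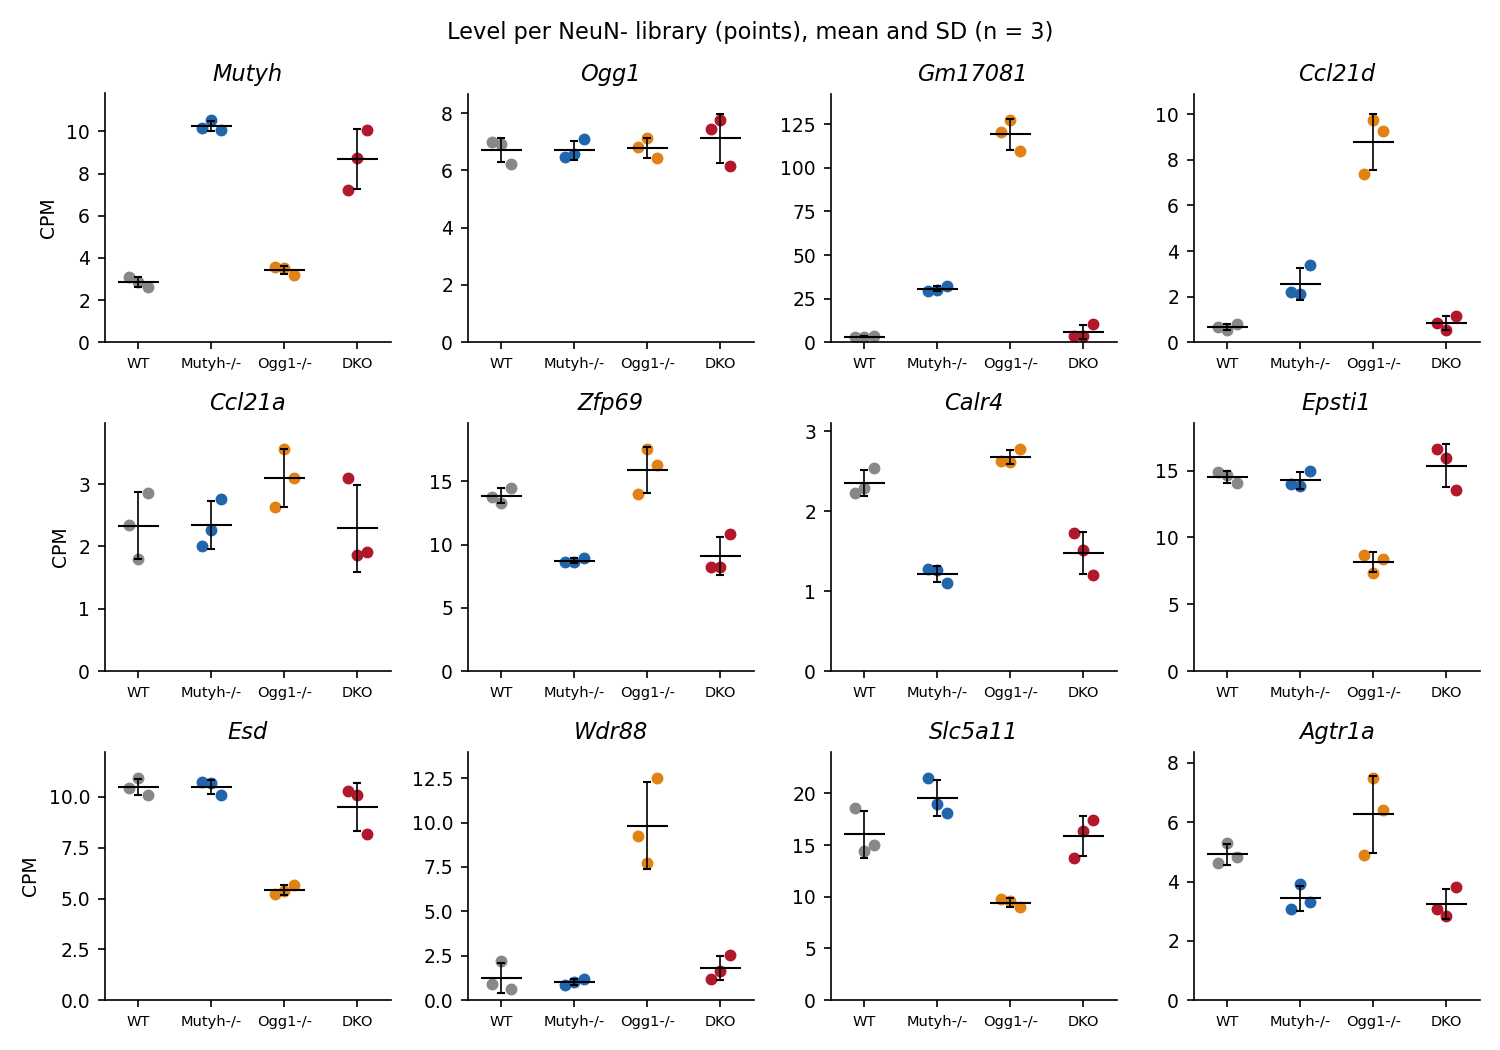
CPM of 12 genes in each NeuN- library by genotype, with points for libraries and lines for the mean and SD (n = 3). Mutyh, Zfp69 and Calr4 part by Mutyh genotype, the copies Gm17081 and Ccl21d are highest in Ogg1-/- and intermediate in Mutyh-/-, and Epsti1, Esd, Wdr88 and Slc5a11 stand apart in Ogg1-/-.

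WT and Mutyh-/- levels sorted the 42 DEGs. By distance between group means (log2 of CPM + 0.1), both WT and Mutyh-/- were nearer to DKO for 26 genes. For 9 genes WT was nearer to Ogg1-/- and Mutyh-/- nearer to DKO, as for Mutyh, Zfp69 and Calr4. For 7 genes WT was nearer to DKO and Mutyh-/- nearer to Ogg1-/-, and for 0 genes were both nearer to Ogg1-/-. For 33 of the DEGs, then, the WT level was nearer to DKO than to Ogg1-/-.

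Loss of Mutyh with Ogg1 present gave a second estimate from other libraries. Mutyh-/- against WT had 87 DEGs in NeuN- (0.273% of genes tested; 53 higher and 34 lower). That number depended on single libraries: it was between 31 and 55 without any 1 of WT replicates 1, 2 or 3 or Mutyh-/- replicates 1 or 2, and 435 without Mutyh-/- replicate 3. Of the 42 DEGs of DKO against Ogg1-/-, 26 were among the 87 (61.9% of the one list and 29.9% of the other). The sign was the same for 7 of these 26, and opposite for 19. The 26 became 14 without WT replicate 1 and 17 without WT replicate 2.

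The genes with the same sign were Mutyh (1.85 with Ogg1 present, 1.34 without), 1700021L23Rik (4.59 and 4.92), 1700057H15Rik (1.73 and 1.72), Zfp69 (-0.67 and -0.81), Calr4 (-0.95 and -0.85), Rhbdl2 (-0.90 and -0.65) and Ndufs5-ps (1.33 and 1.05), all log2 fold changes. The 19 with opposite sign were gene copies around Ccl21b, which were higher in Mutyh-/- than in WT and lower in DKO than in Ogg1-/-. For Gm17081 these log2 differences were 3.28 and -4.38. The difference between backgrounds was itself tested and passed for 39 genes (0.122%), of which 27 were DEGs of DKO against Ogg1-/-. Those 27 were 24 gene copies (3 of them without a position and grouped by their levels), Epsti1, Esd and Gm49171. The 5 smallest adjusted p values belonged to the copies Gm13303, Gm5859, Gm13307, Gm17167 and Gm21093 (1.36e-06 for the first 3 and 1.76e-06 for the others). Epsti1 differed by -0.03 with Ogg1 present and by 0.92 without (difference 0.94, SE 0.12, adjusted p = 4.90e-03). Without DKO replicate 3 the number of such genes was 71.

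**Figure D3:**
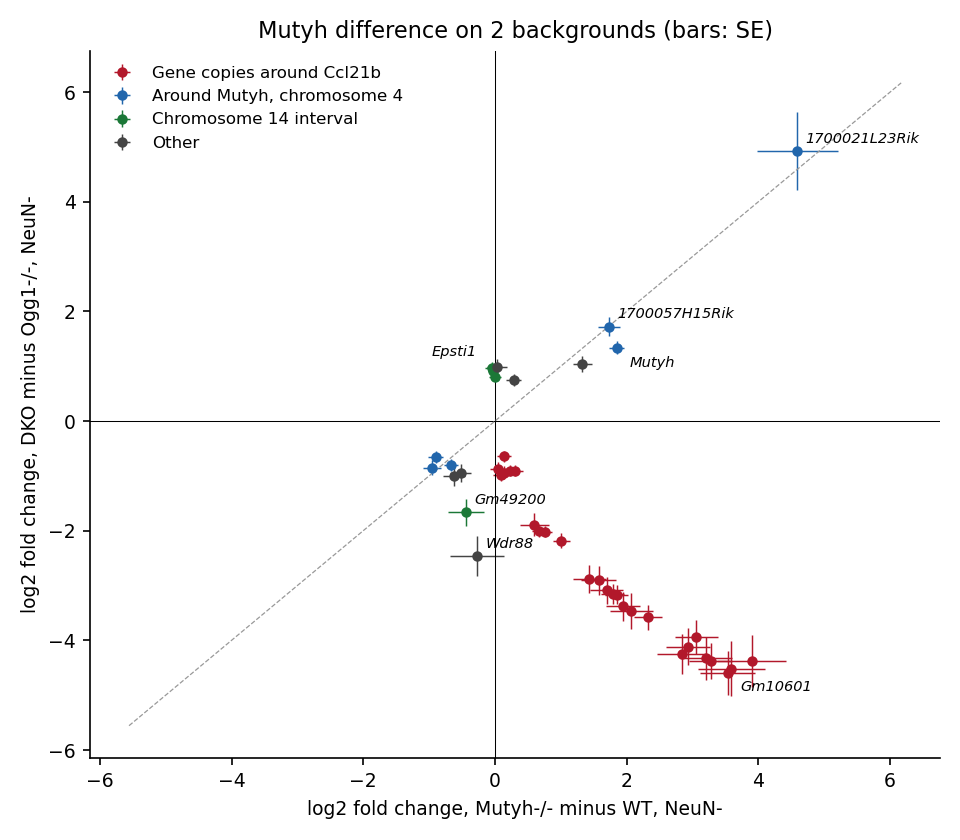
Log2 fold change of DKO minus Ogg1-/- against that of Mutyh-/- minus WT in NeuN- nuclei for the 42 DEGs, with SE bars and a dashed line of equality. Genes around Mutyh lie near the line, gene copies around Ccl21b lie in the lower right, where the signs are opposite, and Epsti1 lies near 0 on the horizontal axis.

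In NeuN+ nuclei the same genotypes gave 65 DEGs of 30132 genes tested (0.216%; 16 higher and 49 lower). Of the 42 DEGs of NeuN-, 31 were also DEGs in NeuN+ (73.8% of the NeuN- list and 47.7% of the NeuN+ list), with the same sign in all 31. They included 25 gene copies, Mutyh (log2 fold change 2.93 in NeuN+), 1700021L23Rik (5.15), 1700057H15Rik (3.47), Ndufs5-ps (2.13), Esd (0.86) and Gm49200 (-2.36). The 11 others were Agtr1a, Calr4, Epsti1, Gm10593, Gm12766, Gm48161, Gm49171, Rhbdl2, Slc5a11, Wdr88 and Zfp69. Of these, Gm10593 missed the NeuN+ list only by the fold limit, with a log2 fold change of -0.48 there (adjusted p = 2.26e-03). Summed over the 26 copies, NeuN+ levels were 3661 to 3936 CPM in Ogg1-/- and 702 to 847 CPM in DKO, higher than in NeuN- in both genotypes.

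A difference between fractions was tested over all 24 libraries and passed for 15 genes (0.0447%), of which 5 were DEGs of NeuN-. Epsti1 led. Its NeuN+ libraries held 1.30, 1.32 and 1.09 CPM in Ogg1-/- and 0.774, 0.658 and 0.775 CPM in DKO, a log2 fold change of -0.75 there (adjusted p = 0.125) against 0.92 in NeuN- (difference 1.66, SE 0.17, adjusted p = 4.96e-05). The difference of Mutyh was smaller in NeuN- than in NeuN+ (-1.59, SE 0.19, adjusted p = 4.17e-04), and Ogg1-/- libraries of NeuN+ held 1.04 to 1.29 CPM of it. Next in order of adjusted p were Gm3952 and Arhgap33os, by -1.50 and 2.69 (adjusted p = 5.10e-04 and 8.63e-04), and Enox1 (-0.55, adjusted p = 1.38e-03). Elovl1 (1.68) had the same adjusted p as Enox1. The other DEGs of NeuN- that differed were Gm49171 (0.88), Zfp69 (-0.73) and 1700057H15Rik (-1.74). That Slc5a11, Wdr88 or Agtr1a passed in NeuN- alone does not show a difference, as their tests between fractions gave adjusted p = 0.854, 0.56 and 0.0772.

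**Figure D4:**
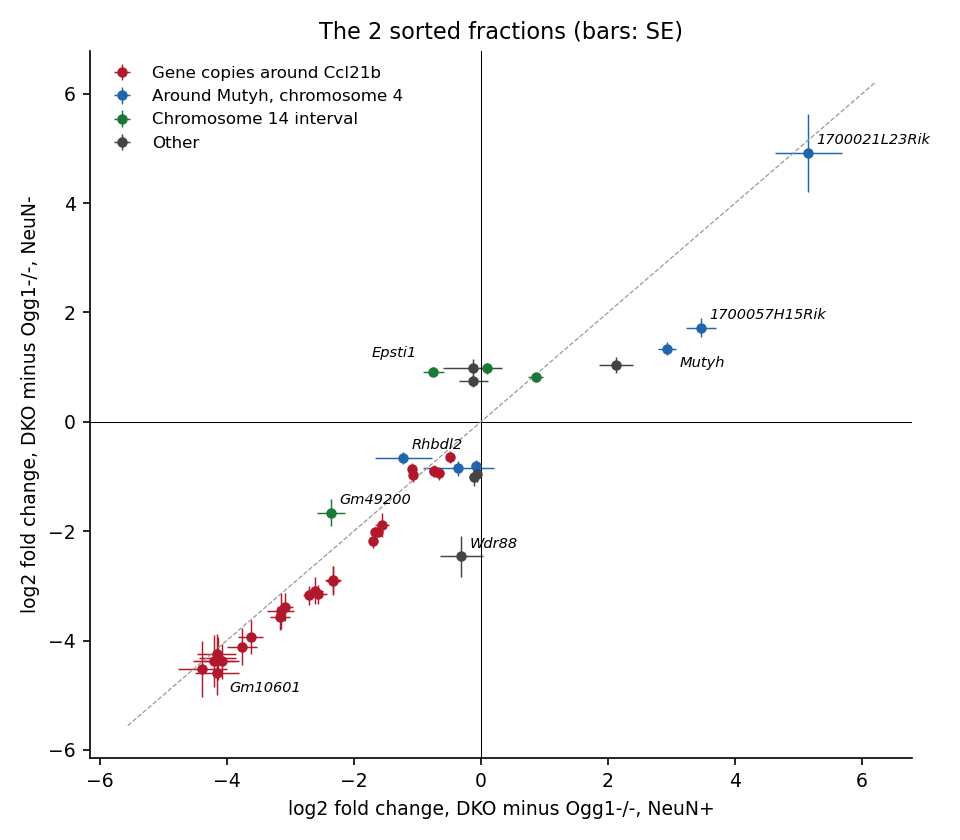
Log2 fold change of DKO minus Ogg1-/- in NeuN- against NeuN+ nuclei for the 42 NeuN- DEGs, with SE bars and a dashed line of equality. Most genes lie in the quadrants of equal sign, and Epsti1 lies above 0 in NeuN- and below 0 in NeuN+.

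Genes of the pathway itself gave few calls. Of 11 DNA glycosylase genes tested, Mutyh passed and the other 10 did not. Neil1, which acts on oxidized pyrimidines, had a log2 fold change of -0.03, Nthl1, with a similar role, -0.11, and Tdg, the thymine glycosylase, -0.01 (adjusted p = 0.997, 0.997 and 0.999). Ung, the uracil glycosylase, had 0.63 (unadjusted p = 0.0344, adjusted p = 0.997). Among 18 genes that act after the glycosylase, 0 passed, against 0.157% of all genes tested. Of these 15 had a negative and 3 a positive log2 fold change, with a median of -0.05, and 1 of the 18 had an unadjusted p under 0.05, against 4.34% of all genes tested. None of 7 genes of the oxidized nucleotide pool, 8 of mismatch repair, 15 of p53 and its targets and 21 of antioxidant defence passed, and their medians lay between -0.04 and 0.04. At 0.157% over all genes, lists of this size hold few or no calls, so 0 calls do not show that their genes were unchanged. In all, 51.5% of tested genes had a positive log2 fold change.

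Glial genes gave 0 calls, which for lists of this size is near the share of 0.157% over all genes tested. Mbp, the myelin basic protein gene, had a log2 fold change of 0.01, Gfap, the astrocyte filament gene, -0.01, and Cx3cr1, the fractalkine receptor gene of microglia, 0.03. The 17 myelin genes had a median of -0.03 and the 12 genes of the oligodendrocyte lineage one of -0.03. The 14 astrocyte genes had a median of -0.06. Among them Aldh1l1, a folate enzyme gene of astrocytes, had 142, 144 and 130 CPM in Ogg1-/- and 117, 94.2 and 111 CPM in DKO (log2 fold change -0.37, adjusted p = 0.542). Of the 16 microglial genes 14 had a positive value (median 0.05), of 20 cholesterol genes 19 a negative one (median -0.09), with 0 called in each. An unadjusted p under 0.05 was found for 3 of 14 astrocyte and 3 of 20 cholesterol genes, all lower in DKO, against 4.34% of all genes tested. It was found for 0 microglial genes. For 7 of the 20 cholesterol genes the 2 groups of libraries did not overlap, against 8.51% of all genes tested. The 6 choroid plexus markers all had a positive value (median 0.59) but spread by library as given above, and Ttr, the transthyretin gene, had 0.45 (adjusted p = 0.997).

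Of 20 interferon response genes, Epsti1 passed and 16 in all had a positive log2 fold change (median 0.11, against 0.00405 over all genes), with 4 of the 20 under an unadjusted p of 0.05, against 4.34% of all genes tested. Isg15, a ubiquitin-like protein gene of the group, had -0.15 (adjusted p = 0.997).

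No gene passed among the 11 polycomb repressive complex 2 genes, 11 genes of DNA methylation, 13 immediate early, 10 glucocorticoid response, 16 circadian clock, 13 heat shock, 17 glycolysis, 15 glutamate and GABA receptor and 79 cytosolic ribosomal protein genes. Here too 0 calls are near the share of 0.157% over all genes and do not show that these genes were unchanged. The medians of these lists lay between -0.05 and 0.12. Suz12, a core subunit of the polycomb complex, had 44.5, 43.2 and 39.3 CPM in Ogg1-/- and 43.1, 40.7 and 44.3 CPM in DKO. Of 4 genes the study names for NeuN- nuclei, 0 passed. The study names them when setting all genotypes side by side, not for DKO against Ogg1-/-, so its statements were not checked by this comparison. Grm7, a metabotropic glutamate receptor gene, had 250, 249 and 260 CPM in Ogg1-/- and 337, 316 and 273 CPM in DKO, which do not overlap (log2 fold change 0.29, adjusted p = 0.71). Bdnf, Npr3 and Wnt6 had 0.02, 0.36 and 0.45 (adjusted p of 0.997 or above), and their libraries overlapped. Endothelial and pericyte markers, 0 of 6 called, had a median of 0.24. The 4 Y-linked and 6 substrain genes checked, 0 called in each, had medians of -0.01 and 0.08.

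**Figure D5:**
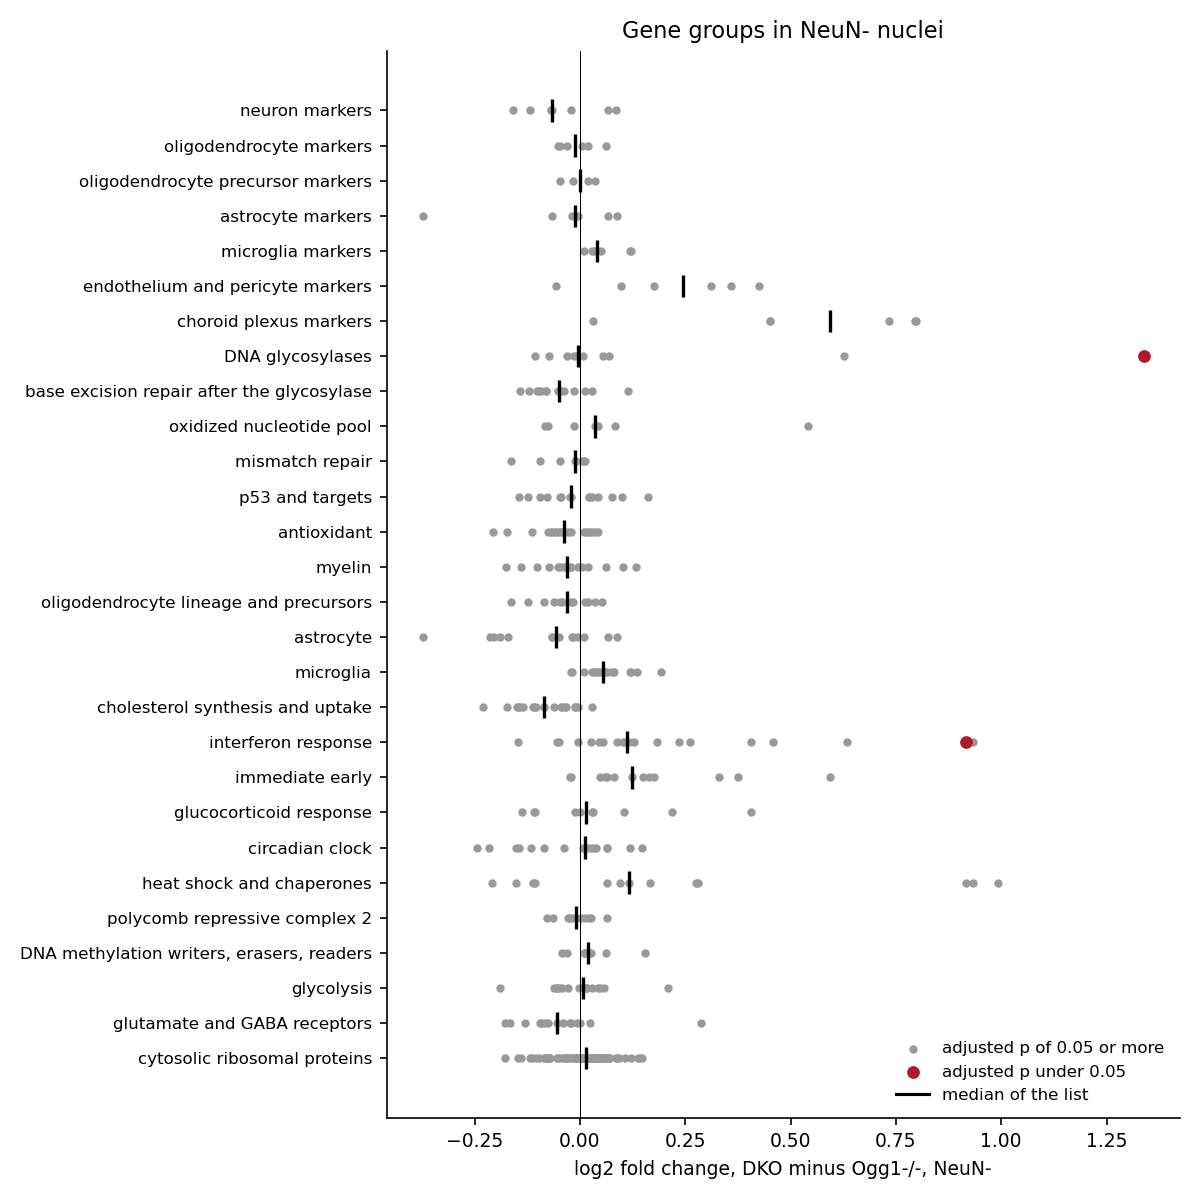
Log2 fold change of DKO minus Ogg1-/- in NeuN- nuclei for each gene of 28 groups, with a bar at the median of each group. Red points have an adjusted p under 0.05 and are Mutyh, among the DNA glycosylases, and Epsti1, among the interferon response genes.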

How the data were processed

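Per the labels, nuclear RNA of sorted NeuN+ and NeuN- hippocampal nuclei was made into libraries with a stranded total RNA kit. The authors aligned read pairs to GRCm38 with HISAT2 2.1.0, and the values they deposited are raw counts per gene of Ensembl release 102 from featureCounts, not normalized, for 55254 genes by symbol. The strand setting and the handling of overlapping genes and of reads with several origins are not given in the sources used here.

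Counts were analysed with R 4.3.3 and edgeR 4.0.16. Genes were kept by filterByExpr, and TMM factors were used. The 12 NeuN- libraries (4 genotypes, 3 each) were fitted together, and contrasts were tested with the quasi-likelihood test and Benjamini-Hochberg adjustment over all genes tested. NeuN+ was fitted likewise, and the difference between fractions came from all 24 libraries. CPM use TMM-scaled library sizes. Positions came from GENCODE vM21 where a symbol named 1 gene there, or else from RefSeq, for 98.68% of the genes tested. On simulated counts for this comparison the test called 87.4% of 103 genes changed by 1 and 99.0% of 97 changed by 2 on the log2 scale, and 8 of 31193 unchanged genes. Alternatives were the likelihood ratio test, DESeq2 1.42.0, robust fitting, other size factors, filters and thresholds, the replicate block, a fit of 2 genotypes and leaving out 1 library.

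Members and gene lists were chosen with earlier results of these data known. Named genes were Ogg1, Mutyh, defining or called list members, up to 15 DEGs higher and 15 lower by smallest adjusted p, DEGs within 10 Mb of Mutyh or Ogg1, DEGs shared with Mutyh-/- against WT or with NeuN+, the 5 genes with the smallest adjusted p in each test of a difference between backgrounds or fractions, and Grm7, Bdnf, Npr3 and Wnt6. The other DEGs, the genes with an adjusted p under 0.05 below the fold limit, Ccl21a, Gm21980, Ccl19-ps1 and Ung were chosen after their values were seen. So was Elovl1. No 2 libraries held the same counts. Chromatin and DNA methylation were not analysed here.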

Additional observations from a re-analysis of the deposited data

Results flagged for a closer look

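For 28 of the named genes the difference between libraries without and with Mutyh itself differed between the Ogg1-null and the Ogg1-proficient background in NeuN- (edgeR's quasi-likelihood test of that difference, adjusted p under 0.05). It is given as the log2 difference of DKO minus Ogg1-/- less that of Mutyh-/- minus WT. It was 0.94 in Epsti1, 0.81 in Esd and 1.01 in Gm49171, and -0.56 in Enox1. Among the gene copies around Ccl21b it was below -4 in Gm10600 (-8.28), Gm10601 (-8.13), Gm10599 (-8.11), Gm17081 (-7.66), Gm50470 (-7.54), Gm13302 (-7.08), Gm13301 (-7.05), Gm3893 (-7.00), Gm17167 (-5.90), BX666061.1 (-5.53), Ccl21d (-5.32), Gm13303 (-5.02), Gm5859 (-4.94), Ccl21b (-4.78), Gm13304 (-4.48) and Gm10591 (-4.32). It was between -4 and -1 in Gm3883 (-3.19), Gm13307 (-2.78), Gm21093 (-2.68), Gm2163 (-2.49), Gm20878 (-1.21), Gm3892 (-1.14), Gm13306 (-1.07) and Fam205a3 (-1.06).

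In the test over all 24 libraries, the DKO minus Ogg1-/- difference itself differed between NeuN- and NeuN+ for 6 of the 56 named genes run under alternatives. As NeuN- less NeuN+ on the log2 scale, it was 1.66 in Epsti1, 0.88 in Gm49171, -0.55 in Enox1, -0.73 in Zfp69, -1.59 in Mutyh and -1.74 in 1700057H15Rik. With 3 libraries a group, no outlier test of single libraries was applied.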

How the results depend on the processing

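DEGs of DKO against Ogg1-/- in NeuN- numbered 42. The likelihood ratio test gave 69 (30 higher), DESeq2 67 (28 higher), a fit of these 2 genotypes alone 25, a log2 fold limit of 1 gave 27, and leaving out the gene copies around Ccl21b, chosen after seeing the data, 16. Without 1 library the number ranged from 30 to 52. The likelihood ratio test kept all 42, DESeq2 41 and the 2-genotype fit 25 of them. DEGs of Mutyh-/- against WT (87) became 239 with the likelihood ratio test, 219 with DESeq2 and 55 with a log2 limit of 1, and ranged from 31 to 435 without 1 library. Genes that differed between backgrounds (39) became 95 and 111 with these tests and ranged from 27 to 71 without 1 library. Those that differed between fractions (15) became 24 and 26, and ranged from 10 to 21. DEGs of NeuN+ (65) stayed within 1.5 times under every alternative run, from 45 to 96. The cause of these shifts was not tested.

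Of 838 values of 56 named genes under alternatives, 724 kept their direction and side of the threshold, 110 lost the call and 4 changed sign. Those 4 were in genes that were not called: without 1 library Bdnf ranged from -0.0946 to 0.205, Npr3 from -0.0128 to 0.606 and Wnt6 from -0.14 to 0.83. Without 1 library in turn, 32 of the 50 genes with an adjusted p under 0.05 kept it in all 6 fits, 24 of them gene copies. Zfp69 lost it without DKO replicate 2 (adjusted p = 0.0517), and Fam205a4 without Ogg1-/- replicate 2 (0.0523). Gm49200 lost it without 4 libraries (up to 0.11), Gm10593 without 5 (up to 0.225), 1700021L23Rik and Podn without 3 (up to 0.0987 and 0.0692) and Gm6994 without any of the 6 (up to 0.228).

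Replicate numbers were not shown to pair the genotypes in NeuN-. Deviations of DKO and Ogg1-/- libraries with the same number correlated at 0.304, 0.0272 and 0.279, and those with different numbers at -0.357 to 0.137. Replicates 1 and 3 of DKO thus correlated best with their own number, and DKO replicate 2 with another number. With the replicate block the DEGs were 38 (NeuN-), 60 (NeuN+) and 83 (Mutyh-/- against WT), and 33 genes differed between backgrounds and 17 between fractions. Between fractions, same-numbered libraries correlated at 0.128, 0.113 and 0.197 in DKO and at 0.149, 0.0234 and 0.292 in Ogg1-/-. With these taken as pairs within each genotype, a replicate block chosen after seeing the data, 12 of the 15 genes differed between fractions, all 5 DEGs of NeuN- among them, and the other 3 (Cfap57, Gm49003 and Skint11, chosen after their values were seen) had an adjusted p up to 0.118. With 3 libraries a group, differences of small size in scarce genes may go undetected.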
